A study of Mus musculus with 3 samples.

Results

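Genes of the proteasome, the main protein-degrading complex of the cell, were followed in mouse C2C12 cells, an established line of muscle precursors that fuse into myotubes when serum is withdrawn, after transfection of diacylglycerol kinase zeta (DGKzeta). Members were taken by name alone, with no measured value: probe sets annotated with 1 gene symbol that starts with Psma, Psmb, Psmc, Psmd, Psme or Psmf followed by a digit, without the interferon-induced Psmb8, Psmb9 and Psmb10. The rule gave 41 genes of 12393 named on the array and 77 probe sets of 22690. Of these genes 39 encode subunits, activators, assembly factors or an inhibitor of the proteasome. The remaining 2 share only the letters: Psmc3ip, a partner protein of meiotic recombinases, and Psme3ip1, a binding partner of Psme3. A probe set shared by Psme2 and Psme2b carries several symbols and was not used.

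The series holds 3 cultures of C2C12 cells with 1 array each: untreated cells, cells that received EGFP (enhanced green fluorescent protein, a control cargo), and cells that received DGKzeta, a lipid kinase that turns diacylglycerol into phosphatidic acid. All 3 carry the time label 12 h. The groups share the cell line and its serum-containing medium, and the transfected cultures were treated by the FuGene method 18 h after plating. How many cells took up a construct is not stated in the labels, so each signal is an average over transfected and other cells, and fewer cells of a kind cannot be told apart from less RNA per cell. Besides the deposited scaling, 3 others were tried: quantile normalization, named-set scaling (each array divided by its median over all probe sets with 1 gene symbol) and measured-set scaling (the same over probe sets at or above the floor described next). There are no replicates, so no difference below has a replicate check and no p-value is given.

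The deposited values are MAS5 signals on a linear scale, and the log2 ratio of 2 arrays is used throughout as the measure of difference. A gene is read by its brightest probe set, and it counts as measured where that signal reaches 107, the median of all values. Dgkz, the transfected gene, read 1500.1 (untreated), 1053 (EGFP) and 13466 (DGKzeta). Of 7 myoblast markers 6 were measured on all arrays. Myod1 was under the floor with 35.1, 26.5 and 23.7, and 4 of the 7 were at least 1.5-fold lower in DGKzeta than in EGFP cells while Myf5 was 0.73 higher on the log2 scale. None of 15 markers of fibroblasts, leukocytes, epithelial, endothelial or fat cells reached the floor on any array, with summed signals of 271, 379.6 and 397. The DGKzeta array also differed in RNA controls: the ratio of the 3′ to the 5′ probe set of Actb was 2.55 there, against 1.43 in EGFP and 1.27 in untreated cells, and that of Gapdh was 0.931, 0.902 and 0.841. For Tfrc it was 5.66, 4.8 and 3.92 in the same order, with the 5′ signals under the floor. Every comparison with DGKzeta cells uses this array, and the part of these control values in the results was not tested.

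The proteasome degrades proteins that carry ubiquitin chains. Its core particle is a barrel of outer alpha rings, which gate the channel, and inner beta rings, which hold the proteolytic sites. The regulatory particle caps the barrel: a base with a ring of ATPases unfolds and threads the substrate, and a lid removes the ubiquitin chain. Muscle cells lean on this system when they turn over myofibrillar and cell cycle proteins.

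Proteasome genes as a group stood level between DGKzeta and EGFP cells as deposited. The members at least 1.5-fold lower than in EGFP cells were 3 lid subunits, a group set apart after the values were seen. Under named-set scaling the group's median was 0.44, as given at the end with the other scalings. Of the 41 genes 40 were measured on all 3 arrays. Psma8, an alpha subunit known from testis, had signals of 12, 16.1 and 8.08 in untreated, EGFP and DGKzeta cells, all under the floor. The median log2 ratio of the 40 genes was 0.08 for DGKzeta against EGFP, with quartiles at -0.16 and 0.26 and 24 genes above 0. Over the 6434 genes measured on all arrays that median was -0.01, and over the 2319 of them with a mean signal of at least 1000 it was 0.09. The SD over the proteasome genes was 0.34, beside 0.35 over those 2319 genes. Against untreated cells the proteasome median was 0.00, with 20 genes above 0, an SD of 0.36 and a range from -1.01 to 0.69. Both comparisons use the same DGKzeta array.

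At least 1.5-fold lower than in EGFP cells were 3 of the 40 genes, or 7.5%: Psmd3, Psmd13 and Psmd7. This share was 11.6% over all 6926 genes measured on at least 1 of both arrays. No proteasome gene was 1.5-fold higher, where 3.51% of all genes were. Psmd3 alone was at least 2-fold lower, or 2.5% of members beside 2.84% of all genes. Against untreated cells 4 genes (10%) were at least 1.5-fold lower, the same 3 and Psmb2, beside 9.93% of all genes, and 1 gene, Psme4, was 1.5-fold higher, or 2.5% beside 7.09%. Again Psmd3 was the 1 member at least 2-fold lower, where 2.8% of all genes were, but its log2 ratio of -1.01 there was -0.99, -0.75 and -0.92 under quantile, named-set and measured-set scaling, all short of 2-fold. Set against both controls at once, 3 members (7.5%) were 1.5-fold lower and 0 higher, where all 6988 genes gave 6.43% and 2.18%. The members' shares were thus near or below those of the whole array.

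**Figure D1:**
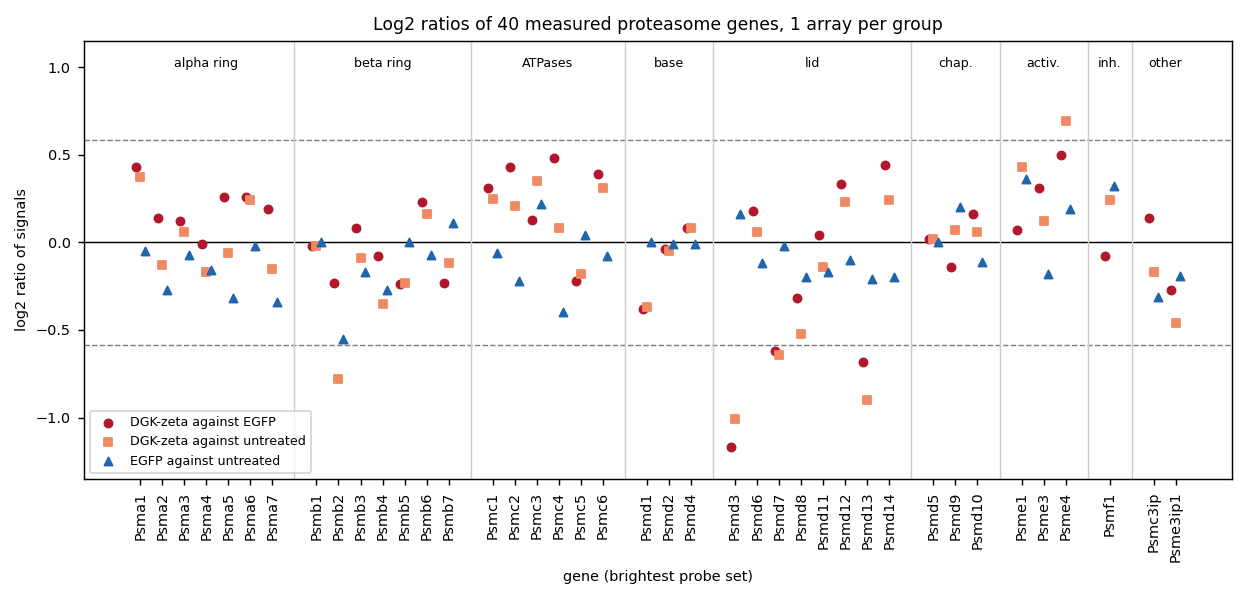
Log2 ratios (vertical axis) of the 40 measured proteasome genes by their brightest probe set, ordered along the horizontal axis by the part of the proteasome they encode, with 1 point per comparison and dashed lines at 1.5-fold. The lid genes Psmd3, Psmd7 and Psmd13 lie under the lower line against both controls, Psmb2 and Psme4 pass a line against untreated cells, and the EGFP points stay between the lines.

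Alpha ring genes of the core particle were slightly higher in DGKzeta than in EGFP cells as deposited. Of 7 measured members 6 had ratios above 0 against EGFP, with a median of 0.19, and 3 were above 0 against untreated cells, with a median of -0.06 that turned to 0.03 under measured-set and 0.20 under named-set scaling. Psma1 was the highest, at 3646 (untreated), 3513 (EGFP) and 4721 (DGKzeta), log2 0.43 against EGFP. Psma4 was the lowest, with 5073, 4556 and 4519 (-0.01). The EGFP array was the low one for most of this ring: Psma7 had 4491, 3547 and 4044, Psma5 had 5813, 4643 and 5558, and Psma2 had 5184, 4300.1 and 4735. All 7 ratios of EGFP to untreated cells were below 0, from -0.34 to -0.02, and none was above 0 under the 3 other scalings, while 1 was with the mean over probe sets, and 1 with the suffixes _x_at and _s_at left out. The other members, Psma3 and Psma6, were at 0.12 and 0.26 against EGFP. The median of EGFP against untreated cells, -0.16, stood beside 0.01 over all genes.

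Beta ring genes were level to slightly lower in DGKzeta cells, with a median of -0.08 against EGFP and -0.12 against untreated cells as deposited, which turned to 0.29 and 0.14 under named-set scaling and, under measured-set scaling, to 0.03 and -0.03. The 3 subunits with the proteolytic sites did not share a direction against EGFP as deposited, while under named-set scaling Psmb5 (0.13), Psmb6 (0.59) and Psmb7 (0.14) were all above 0. So were all 14 measured core genes under that scaling, where the median of all genes was 0.35. Of the 3 subunits only Psmb6 lay above that median. Psmb5, the chymotrypsin-like site, read 3735 (untreated), 3741 (EGFP) and 3176 (DGKzeta), log2 -0.24 against EGFP. Psmb6, the caspase-like site, had 4084, 3890.1 and 4558 (0.23), and Psmb7, the trypsin-like site, had 7782, 8382 and 7166 (-0.23). The remaining Psmb1, Psmb3 and Psmb4 lay between -0.08 and 0.08 by their brightest probe sets. The differences of Psmb5, Psmb6 and Psmb7 as deposited are each smaller than the SD of 0.32 that a single probe set carries in this comparison, as described below.

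Psmb2, a structural beta subunit, was lower on both transfected arrays than in untreated cells. Its single probe set read 922 (untreated), 630.3 (EGFP) and 537 (DGKzeta). It was 1.72-fold lower in DGKzeta than in untreated cells and 1.46-fold lower in EGFP cells, while DGKzeta and EGFP were 1.17-fold apart, at -0.23 as deposited and 0.13 under named-set scaling. The ratio of DGKzeta to untreated cells was -0.78 on the log2 scale, or -0.52 under named-set scaling, which is under 1.5-fold.

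ATPase genes of the base were the group of subunits with the highest median against EGFP, 0.35, with 5 of 6 above 0. Against untreated cells the median was 0.23, again with 5 of 6 above 0, though second probe sets gave another direction there. Both medians stayed above 0 under the 3 other scalings, between 0.27 and 0.71 against EGFP. Psmc4 read 3861 (untreated), 2923 (EGFP) and 4080.1 (DGKzeta), log2 0.48 against EGFP and 0.08 against untreated. Its EGFP signal was the low one. Psmc2 had 5312, 4575 and 6160.0 (0.43 against EGFP) and Psmc6 had 4157, 3943 and 5157 (0.39). Psmc1 had 2037, 1956 and 2425 (0.31), and Psmc3 had 4352, 5072 and 5545 (0.13). Psmc5 was the exception, with 2964, 3049.7 and 2623, a ratio of -0.22. None of the 6 reached 1.5-fold in any comparison by its brightest probe set as deposited. The second probe set of Psmc6 was 1.54-fold above EGFP and 1.62-fold above untreated cells, while those of Psmc2 and Psmc4 stayed under 1.5-fold.

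The other base subunits, which organise the ATPase ring or bind ubiquitin, did not reach 1.5-fold. Psmd1, the largest scaffold protein of the base, read 4003 (untreated), 4007 (EGFP) and 3087 (DGKzeta), a ratio of -0.38 against EGFP. Psmd2 had 3772, 3740.0 and 3641, and the ubiquitin receptor Psmd4 had 2519, 2507 and 2659. Psmd5, Psmd9 and Psmd10, chaperones that help the base to assemble, lay between -0.14 and 0.16 against EGFP and between 0.02 and 0.07 against untreated cells.

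Lid genes split between subunits that were lower in DGKzeta cells and subunits that were level or slightly higher, with a median of -0.14 against EGFP that turned to 0.22 under named-set scaling. Psmd3, Psmd13 and Psmd7 stayed below 0 against both controls under all 4 scalings. The 8 measured genes ranged from -1.17 to 0.44 against EGFP, with 4 on either side of 0 and an SD of 0.57, beside 0.14 in the alpha ring and 0.26 among the ATPases. Between EGFP and untreated cells the same 8 genes had an SD of 0.13 and a range from -0.21 to 0.16. The lid was set apart from the other Psmd genes after the values were seen, so its SD is no check of a split. All 14 Psmd genes as 1 group had a median of -0.01 against EGFP and an SD of 0.44. The differences between these SDs were not tested.

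Psmd3, a scaffold subunit of the lid, read 1546 (untreated), 1723 (EGFP) and 766 (DGKzeta). The DGKzeta array was the low one, and both controls were within 1.11-fold of each other. Psmd3 was 2.25-fold lower than in EGFP cells and 2.02-fold lower than in untreated cells. Its log2 ratio of -1.17 against EGFP ranged from -1.16 to -0.81 over the 3 other scalings. Both other floors lie under its signals and so cannot alter it. No second probe set for Psmd3 was named on the array.

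Psmd13, another scaffold subunit, was lower by both of its probe sets. The brighter read 1593 (untreated), 1374 (EGFP) and 855 (DGKzeta), and the other had 832, 819.7 and 580.2. On each the DGKzeta signal was the lowest and both controls lay close together. The log2 ratios against EGFP were -0.68 and -0.50, and against untreated cells -0.90 and -0.52. The brighter probe set was at -0.32 against EGFP under named-set scaling and at -0.58 under measured-set scaling, both short of 1.5-fold.

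Psmd7, the inactive partner of the lid's deubiquitinase, read 2193 (untreated), 2162 (EGFP) and 1405 (DGKzeta), which is 1.54-fold below EGFP and 1.56-fold below untreated. Its other 2 probe sets were under the floor on every array. Under measured-set scaling the ratio to EGFP was -0.52 and that to untreated cells -0.55, and under named-set scaling they were -0.26 and -0.38, all under 1.5-fold. Psmd8 had 3774, 3281 and 2635, log2 -0.32 against EGFP and -0.52 against untreated cells, and among the scalings it passed 1.5-fold against untreated cells only after quantile normalization.

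On the other side of the lid stood Psmd14, the deubiquitinase that cuts the ubiquitin chain from the substrate. It read 5559 (untreated), 4841 (EGFP) and 6581 (DGKzeta), a ratio of 0.44 against EGFP and 0.24 against untreated. Psmd12 had 3185, 2971 and 3725 (0.33 and 0.23). Psmd6 had 5144, 4749 and 5374 (0.18 and 0.06), while its dimmer probe set, with 215, 222 and 403, gave 0.86 and 0.90. Psmd11 had 4 measured probe sets, which gave 0.04, -0.44, 0.03 and -0.46 against EGFP, so its ratio depends on the probe set read.

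**Figure D2:**
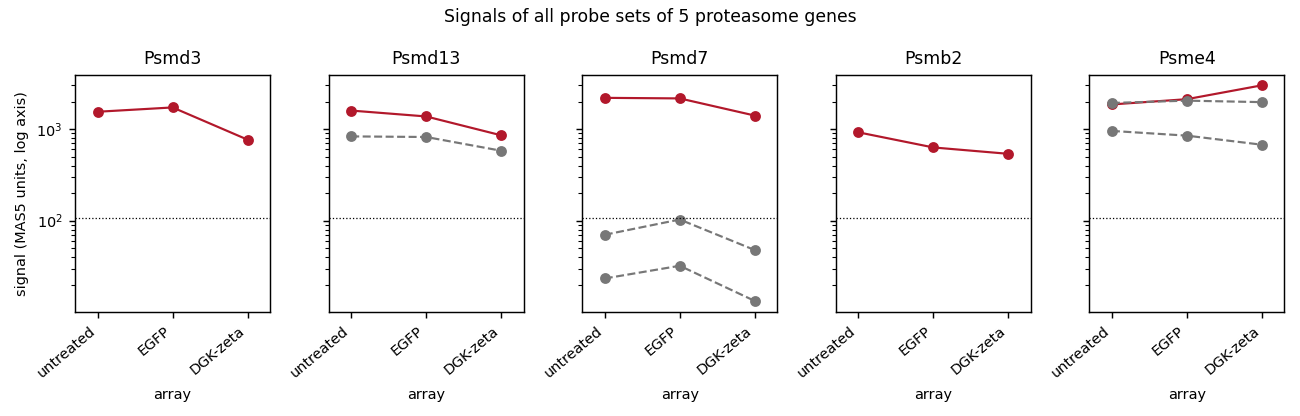
Signals in MAS5 units on a log axis for every probe set of the 5 genes at least 1.5-fold apart in a comparison, on the untreated, EGFP and DGKzeta arrays. Red solid lines join the brightest probe set, grey dashed lines the others, and the dotted line is the floor of 107. Both lines of Psmd13 end lowest in DGKzeta cells, while of the 3 lines of Psme4 only the brightest ends highest.

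Activators, which open the gate of the core particle in place of the regulatory particle, had ratios above 0 by their brightest probe sets, but other probe sets of Psme3 and Psme4 did not repeat this. Psme1, a subunit of the interferon-linked activator, read 903 (untreated), 1156 (EGFP) and 1214 (DGKzeta) by 1 probe set. It was the highest of all members between EGFP and untreated cells, at 0.36, and it was level between DGKzeta and EGFP, at 0.07. Psme4, an activator known from DNA repair and sperm development, had 1858, 2121 and 3005 by its brightest probe set, 1.62-fold above untreated cells. Its next probe set had 1928, 2044 and 1969 and the last had 955, 848 and 675. Their ratios against untreated cells were 0.69, 0.03 and -0.50, so that the direction differs between them. The brightest carries the suffix _s_at, used for probe sets that can match several transcripts.

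Psme3, the nuclear activator, had 851, 749 and 927 by its brighter probe set and 344, 496 and 249 by the other. These gave 0.31 and -0.99 against EGFP, again in opposite directions. Psmf1, an inhibitor of the core particle, had 425, 531 and 501 by its brightest probe set, and its 3 measured probe sets gave 0.24, -0.23 and -0.86 against untreated cells. Of the genes that match the rule by letters alone, Psmc3ip had 496, 399.7 and 440.1 and Psme3ip1 had 842, 737 and 613.

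The comparison of EGFP with untreated cells sets transfection without the kinase beside no transfection for the same genes. No proteasome gene was 1.5-fold higher or lower by its brightest probe set as deposited, where 4.13% and 1.51% of all 6932 genes were. The second probe set of Psma7, with 4883 in untreated and 3144 in EGFP cells, was 1.55-fold lower. Other probe sets of Psmb4, Psma6 and Psmc6 were higher and are given below. Psmb2 passed 1.5-fold under named-set scaling, at -0.65. The median log2 ratio was -0.07 with 11 of 40 genes above 0, beside 0.01 over all genes and -0.02 over those with a mean signal of at least 1000. Ratios ran from -0.55 (Psmb2) to 0.36 (Psme1), with an SD of 0.19. This median was -0.17 under named-set scaling, where the median of all genes was -0.09, so the distance between both stayed at -0.09.

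A second probe set put Psmb4 far from this picture. Psmb4, a structural beta subunit, read 7854 (untreated), 6521 (EGFP) and 6180.2 (DGKzeta) by its brightest probe set. Its other one, of suffix _x_at, had 949, 4078 and 4973. The untreated array alone was low there, and the log2 ratio of EGFP to untreated was 2.10 in place of -0.27. A dim _x_at probe set of Psma6 had 30.4, 211 and 186, also with the untreated array alone under the floor, while its 2 brighter probe sets gave -0.02 and 0.00 for the same comparison. The _at probe set of Psmc6 had 125, 217 and 239, a ratio of 0.80, where its 2 brighter ones gave -0.08 and 0.08. Psmb4 thus has no settled direction against untreated cells.

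Probe sets of the same gene are the only repeated measure in these arrays. They read 1 RNA extract with different probes, so they do not cover the spread between cultures. Of the 40 measured genes 15 had a second probe set that reached the floor on all arrays. The difference between both ratios corresponds to an SD of 0.34 for a single probe set in DGKzeta against EGFP, 0.60 in DGKzeta against untreated and 0.47 in EGFP against untreated cells. Over the 639 genes whose 2 brightest probe sets had mean signals of at least 1000 it was 0.32, 0.40 and 0.21. The spread of the proteasome genes around their median, 0.34 against EGFP, was therefore of the same size as the error of 1 probe set. Both probe sets had the same sign in 9 of 15 genes against EGFP, in 8 against untreated cells, and in 9 between EGFP and untreated cells. Their median against EGFP was 0.19 by the brightest and 0.06 by the second probe set. Psmd3, at -1.17 against EGFP and -1.01 against untreated cells, lay further from 0 than each of these SDs for the same comparison. Psmd3 is the lowest of the 40 members in both comparisons. The lowest of many genes can lie beyond 1 SD by selection, so this distance is no check of its difference. The second probe set of Psmd13, at -0.52 against untreated cells, lay within the 0.60 of the proteasome genes but beyond the 0.40 of the 639. The 2 probe sets of Psmb4 differ by 2.74 there and by 2.37 between EGFP and untreated cells. This widest gap of the 15 genes raises the 0.60 and the 0.47. Under named-set scaling Psmd13 was at -0.32 and Psmd7 at -0.26 against EGFP, where the median of all genes was 0.35. That scaling shifts all these ratios alike, so their distance from 0 there is no check of either gene. For Psmc4 the brightest gave 0.48 and the second -0.05 against EGFP. For Psmc2 the values were 0.43 and 0.12, and for Psmc6 0.39 and 0.62, so that 2 of the 3 ATPases with a second probe set kept a ratio above 0 against EGFP. Against untreated cells the second probe sets gave -0.10 for Psmc2, -0.18 for Psmc4 and 0.70 for Psmc6, a median of -0.10 with 1 of 3 above 0.

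**Figure D3:**
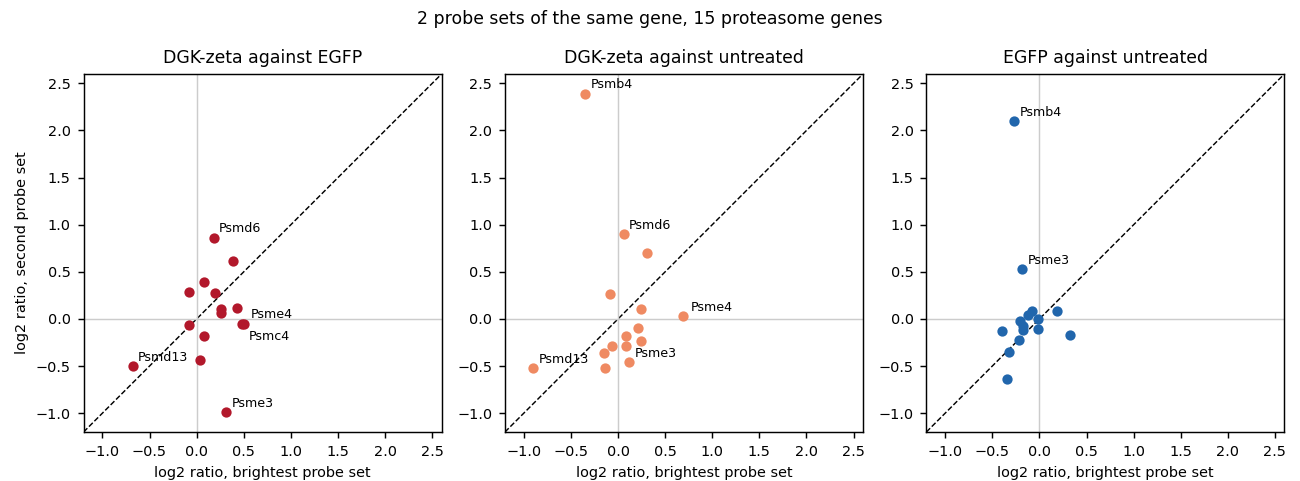
Log2 ratio by the brightest (horizontal axis) and the second-brightest probe set (vertical axis) of the 15 proteasome genes with both at or above the floor on the 3 arrays, 1 panel per comparison, with the dashed line marking equal values. Psmd13 lies below 0 on both axes in every panel, Psme3 at 0.31 and -0.99 against EGFP lies far below the line, and Psmb4 lies far above the line in both comparisons with untreated cells.

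Other genes of the pathway were read from lists of assembly factors, associated proteins, ubiquitin shuttles, the segregase VCP, transcription factors of proteasome genes, immunoproteasome subunits and a muscle ubiquitin ligase. Of 28 such genes on the array 24 were measured on all 3 arrays. Their median against EGFP was 0.03, with 0 genes at least 1.5-fold higher and 3 lower, where 3.51% and 11.6% of all genes were. Against untreated cells it was -0.04, with 1 higher (Psmb10) and 1 lower (Nfe2l1), beside 7.09% and 9.93% of all genes. Between EGFP and untreated cells it was 0.04, with 1 higher (Psmb10) and 0 lower, beside 4.13% and 1.51%.

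Nfe2l1, a transcription factor that raises proteasome genes when proteasome activity falls short, was lower in DGKzeta cells by its single probe set. It read 526 (untreated), 588 (EGFP) and 279 (DGKzeta), which is 2.11-fold below EGFP and 1.88-fold below untreated. Its log2 ratio against EGFP was -1.07, and -0.71 under named-set scaling. Nfe2l2, its relative in the oxidative stress response, had 2299, 2046 and 2226 and was level. Ngly1, the enzyme that activates the NFE2L1 protein by removing its sugar chains, had 618, 544 and 597. Nfe2l3 was under the floor on every array.

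Factors that build or assist the proteasome were not 1.5-fold apart. The assembly chaperone Psmg1 read 2010.0 (untreated), 1366 (EGFP) and 1752 (DGKzeta), and Pomp, which completes the core particle, had 2986, 2682 and 3455, a ratio of 0.37 against EGFP. Usp14, a deubiquitinase bound to the base, had 1897, 2257 and 2738. The 6 associated genes had a median of 0.16 and the 5 assembly factors of 0.17 against EGFP. Among delivery factors, Nploc4, a cofactor of VCP, had 702, 912 and 555 (-0.72 against EGFP), and the shuttle Ubqln4 had 1057, 1144 and 746 (-0.62, and -1.57 by its second probe set). Both were under 1.5-fold under named-set scaling, at -0.35 and -0.25. Of the immunoproteasome genes, Psmb10 was measured, with 203 in untreated, 324 in EGFP and 355 in DGKzeta cells, and was high on both transfected arrays. Against untreated cells its single probe set gave 0.68 for EGFP and 0.81 for DGKzeta. Under named-set scaling these were 0.57, which is under 1.5-fold, and 1.07. Psmb8 and Psmb9 were under the floor on every array. The muscle ubiquitin ligase Fbxo32 was under the floor too.

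Promoters of proteasome genes are shown because the members' ratios can be set beside the sequence motifs of their known regulators. The 250 bases before the RefSeq transcript start (GRCm38.p6) were found for 34 of the 41 members. The core of the antioxidant response element, TGACNNNGC on either strand, which NFE2L1 and NFE2L2 bind, was in 5 of 34 promoters (14.7%). It was in 13.7% of the 5309 genes measured on all arrays with a promoter in the table, and in 11.5% of all 27025 genes of the table. The ETS core CGGAAG was in 18 of 34 (52.9%), beside 33.3% and 15.3%. The GC box GGGCGG, which can share the bases CGG with the ETS core, was in 58.8%, beside 68.6% and 35.4%, and the NF-Y box CCAAT was in 41.2%, beside 41.2% and 37.5%. A match describes letters in this window and shows no binding. The 5 matches to the first motif are shown with up to 16 bases on each side, read along the gene, with the match in capitals, which for Psmc6 and Psmd12 is on the opposite strand. They lie at chr14:54618018-54618058 on the minus strand for Psmb5 and on the plus strand at chr11:70525332-70525356 for Psmb6, chr14:45329581-45329621 for Psmc6, chr11:107479278-107479305 for Psmd12 and chr5:123228143-123228183 for Psmd9.
Psmb5: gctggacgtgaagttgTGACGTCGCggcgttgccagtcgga
Psmb6: ggcggactaaagagagTGACGGAGC
Psmc6: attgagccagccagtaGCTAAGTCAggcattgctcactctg
Psmd12: tctGCTGTGTCAcatttgcccccctcag
Psmd9: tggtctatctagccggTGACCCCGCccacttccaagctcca

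The 5 members with this motif lay on both sides of 0 against EGFP as deposited. Under named-set scaling all 5 were above 0, as were 36 of the 40 measured members. As deposited the ratios were -0.24 for Psmb5, 0.23 for Psmb6, 0.39 for Psmc6, 0.33 for Psmd12 and -0.14 for Psmd9. Their median was 0.23, beside 0.12 over the 29 other members with a promoter. For the 18 members with the ETS core it was 0.16, and for the 16 without it 0.10. Against untreated cells these medians were 0.16 and 0.02 for the first motif, and 0.07 and 0.04 for the ETS core.

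For the lid the 250 bases before the start are given for a member that was lower in DGKzeta cells and for one that was not. Psmd13, at -0.68 against EGFP, lies at chr7:140882144-140882393 and Psmd12, at 0.33, at chr11:107479278-107479527, both on the plus strand. Capitals mark the ETS core on either strand and the core of the antioxidant response element.
Psmd13: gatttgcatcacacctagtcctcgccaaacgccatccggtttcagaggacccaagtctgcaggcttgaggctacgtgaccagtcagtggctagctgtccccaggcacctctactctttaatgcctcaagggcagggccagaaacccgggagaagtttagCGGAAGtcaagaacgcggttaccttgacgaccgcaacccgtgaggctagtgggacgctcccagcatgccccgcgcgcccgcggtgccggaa
Psmd12: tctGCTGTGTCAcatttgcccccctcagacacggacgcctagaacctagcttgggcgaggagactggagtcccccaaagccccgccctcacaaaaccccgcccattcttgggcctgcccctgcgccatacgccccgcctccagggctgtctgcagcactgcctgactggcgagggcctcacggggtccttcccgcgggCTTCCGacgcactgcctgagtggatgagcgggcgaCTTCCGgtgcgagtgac

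Both promoters hold the ETS core, and the one of Psmd12 also holds the antioxidant response element core. The ETS core was in the promoters of Psmd8, Psmd6, Psmd11 and Psmd14 as well. Of these, Psmd8 (-0.32) was below 0 against EGFP as deposited. None was under named-set scaling, where the median of all genes was 0.35. No promoter was found for the lid genes Psmd3 and Psmd7, so whether they hold the motif is not known here.

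The position of the whole group depended on how the arrays were scaled. Under named-set scaling the median of all measured genes moved by 0.36 in DGKzeta against EGFP and by 0.26 against untreated cells. The proteasome median moved with it, to 0.44 and 0.26. Relative to all measured genes it was 0.09 as deposited, 0.10 and 0.09 with the median scalings and 0.00 after quantile normalization in the comparison with EGFP, and between -0.09 and 0.02 in that with untreated cells. The split of members at least 1.5-fold apart from EGFP was 0 higher and 3 lower as deposited. It was 12 higher and 1 lower under named-set scaling, 2 and 1 under measured-set scaling, and 0 and 3 after quantile normalization. The 12 were Psma1, Psma5, Psma6, Psmb6, Psmc1, Psmc2, Psmc4, Psmc6, Psmd12, Psmd14, Psme3 and Psme4, and the lower member under each of the 4 scalings was or included Psmd3. Against untreated cells the split was 1 higher and 4 lower as deposited, and 4 and 2 under named-set scaling. Shares of all genes at 1.5-fold were counted as deposited only. Because all genes moved too, the counts under other scalings are no result about the members.

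**Figure D4:**
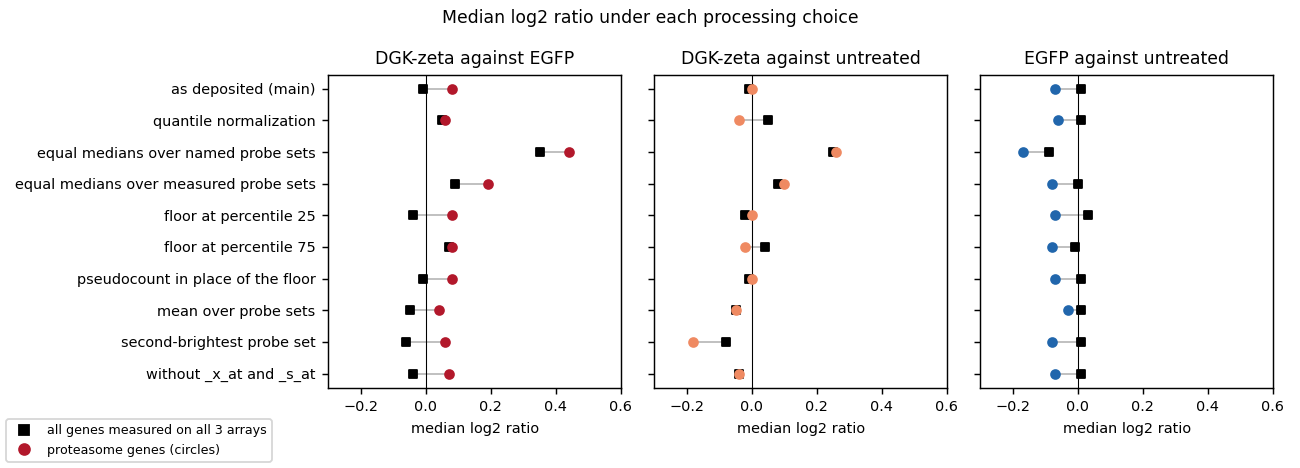
Median log2 ratio (horizontal axis) of the proteasome genes (circles) and of all genes measured on the 3 arrays (black squares) under each processing choice (vertical axis), 1 panel per comparison. In the comparison with EGFP the proteasome median runs from 0.04 to 0.44, and the squares shift with it under named-set scaling.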

How the data were processed

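Total RNA of 3 samples was put on 1 Affymetrix array each after one-cycle biotin labelling, per the labels' protocols. For the deposited intensities the submitters' processing notes name MAS5. No version, target for scaling or presence call was used here. The deposited intensity values have the same trimmed mean on each array (499.9, without the extremes), so they had been scaled per array, and no scaling was added. The 64 control probe sets were left out, and genes were named from the platform annotation. Per gene the probe set with the highest mean log2 signal was used. Values under the floor (50th percentile of all values, 107) were set to it before log2. Differences of at least 1.5-fold and 2-fold were counted among genes at or above the floor on at least 1 array of a comparison. The number of arrays limits the precision.

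Members and lists were chosen with earlier results of these data known. Named in full were members at least 1.5-fold apart, the highest and lowest of each subcomplex against EGFP, members whose probe sets differ by over 1 on the log2 scale, Psmb5, Psmb6, Psmb7, Psmd14 and pathway genes. The grouping of Psmd genes into base, lid and chaperones, and Psma2, Psma5, Psma7, Psmd6, Psmd11, Psmd12 and other members printed beside them, were added after their values were seen. No probe set with 1 symbol named the listed genes for ubiquitin or its activating enzymes. Alternatives were 3 scalings, floors at the 25th and 75th percentile, a pseudocount of 3.17, other probe set rules and the 2-fold rule. The counting was tested on simulated data. Python 3.11.15, numpy 2.4.6, pandas 2.3.3 and matplotlib 3.10.9 were used.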

Additional observations from a re-analysis of the deposited data

How the results depend on the processing

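The results rest on 1 array per group, so nothing here can be left out or repeated, and a value was taken as moved when a median shifted by over 0.1 on the log2 scale or a count by over 1.5 times. Equal medians over all named probe sets gave proteasome medians of 0.44 against EGFP and 0.26 against untreated cells in place of 0.08 and 0.00. The counts at 1.5-fold were then 12 higher and 1 lower against EGFP, 4 higher and 2 lower against untreated cells, and 1 lower between EGFP and untreated cells. For this and the other settings below, the share of all genes at 1.5-fold was not counted. Equal medians over measured probe sets gave a median of 0.19 and counts of 2 higher and 1 lower against EGFP. With probe sets of a gene averaged, 2 genes were higher against untreated cells, and 1 between EGFP and untreated cells. With the second-brightest probe set, over the 15 genes that have one, the counts were 2 higher and 1 lower against EGFP, 3 higher and 0 lower against untreated cells with a median of -0.18, and 1 in each direction between EGFP and untreated cells. With the suffixes _x_at and _s_at left out, 0 genes were higher against untreated cells. At 2-fold, 1 gene was lower against EGFP, and 0 were higher and 1 lower against untreated cells. Quantile normalization, both other floors, the pseudocount and leaving out Psmc3ip and Psme3ip1 moved none of the medians or counts that far. Equal medians divide each array by 1 number, which shifts the ratios of all genes above the floor alike. The cause of the other shifts was not tested, and the setting with the second-brightest probe set also covers fewer genes. For single named genes, 281 of the recomputed ratios kept their side of 1.5-fold and their direction, 20 dropped under 1.5-fold, 7 passed it, and 10 that were under 1.5-fold as deposited changed sign. Many of the 281 could hardly change. The floor at the 25th percentile and the pseudocount gave 39 of them each, as these genes all lay above the main floor. Averaging probe sets leaves a gene with 1 probe set as it was. Nfe2l1 gave -0.07 against EGFP with the floor at the 75th percentile, since its signals then lie at or near the floor.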
